A study of Mus musculus with 2 samples.

Results

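The 10 genes described here encode transcription factors that set up and maintain the myeloid program, with the partner subunit of the RUNX proteins: Spi1, Spib, Runx1, Runx2, Runx3, Cbfb, Myb, Etv6, Fli1 and Erg. They were taken by gene symbol, from a list drawn up with earlier results of these data known, and all 10 were found among the 24421 symbols measured. RNA had been sequenced from granulocyte-monocyte progenitors, abbreviated GMPs, which are the bone marrow cells committed to making neutrophils and monocytes. The NTB-GMP group came from female non-tumor-bearing mice. The 4T1-GMP group came from female mice carrying 4T1 cells, a mouse mammary carcinoma line, placed in the mammary gland. Both groups shared an F1 semi-syngeneic (H-2b/d) background, and no drug or gene deletion is named for either. The age of these mice, how long they carried tumors and the number of mice behind each library are not given in the labels. The study's methods state an age range for the mice of all its experiments. They describe 4T1 cells placed in BALB/c mice and do not mention F1 mice, so labels and methods differ on the strain. The cells were sorted by flow cytometry. The study gives a sorting method for GMPs used in cultures that make myeloid-derived suppressor cells. There, cells positive for Ter-119, Gr-1, B220 or CD3 are removed, and the rest are stained for CD150, CD16/32, Sca-1 and c-Kit. Whether these libraries were sorted in the same way is not stated there. Each group is 1 library, so nothing estimates the spread between animals, no test between the conditions was possible and no p-value is given.

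PU.1, the protein of Spi1, is an ETS-family factor that opens myeloid enhancers and is needed for both granulocytes and monocytes; its close relative Spi-B, from Spib, works mainly in B cells and plasmacytoid dendritic cells. RUNX1, RUNX2 and RUNX3 bind DNA through a shared Runt domain and do so stably only when paired with CBF-beta, the product of Cbfb, which itself does not touch DNA. MYB keeps progenitors dividing and drives granule protease genes, ETV6 is an ETS-family repressor that adult stem cells depend on, and FLI1 and ERG are a pair of related ETS factors of stem cells, progenitors and megakaryocytes.

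The values are RPKM, reads scaled by gene length and by library size, so levels of different genes can be compared per length. Whole reads were recovered from them, with scaling totals of 10180365 for NTB-GMP and 30016263 for 4T1-GMP. These totals are rounded here, were not whole numbers and are not the sums of the recovered reads. A gene at the same RPKM in both has more reads, and so less relative counting error, in the deeper 4T1-GMP library. A ratio below is the log2 of RPKM + 0.1 in 4T1-GMP over that in NTB-GMP, and its 95% interval is an exact Clopper-Pearson interval from the recovered reads. It covers counting error only. Whether PCR copies were removed is not given in the sources used here, and any left in would count as separate reads. The 10378 genes whose mean over both libraries reached 1 RPKM are called tested genes, and their median log2 ratio was 0.05. The ribosomal RNA gene Rn45s held 17% of the NTB-GMP scaling total and 6.98% of the 4T1-GMP one, and leaving it out shifts log2 ratios by -0.16, and by less for genes near the pseudocount. The sorted cells carried the granule enzyme genes of GMPs at the highest levels of any list measured. Mpo, myeloperoxidase, stood at 5162.5 RPKM in NTB-GMP and 5624.9 in 4T1-GMP, and the summed RPKM of 10 GMP markers was 10659 and 16344. Within that list, 5 genes were at least 1.5-fold higher in 4T1-GMP and 3 were lower, namely Cd34, Kit and Fcgr3.

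Of the 10 genes, 9 were tested genes, and the exception was Spib. No member was at least 1.5-fold higher in the 4T1-GMP library, where 9.80% of all tested genes were. At least 1.5-fold lower were 4 members, Runx1, Runx2, Runx3 and Etv6, against 11.6% of all tested genes. At 2-fold, 0 members were higher beside 3.25% of tested genes, and 1 member, Runx1, was lower beside 4.92%. Counting any size, 2 of the tested members, Spi1 and Fli1, were higher and 7 were lower. The median log2 ratio of the members was -0.46. With Rn45s left out of both totals the background itself moves, to 5.85% of tested genes higher and 17.5% lower, and the members then stood at 0 higher and 5 lower, Erg being the gene added. In a bulk library, fewer cells of a type that uses a gene and less of its RNA per cell cannot be told apart, and this holds for every ratio given here.

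**Figure D1:**
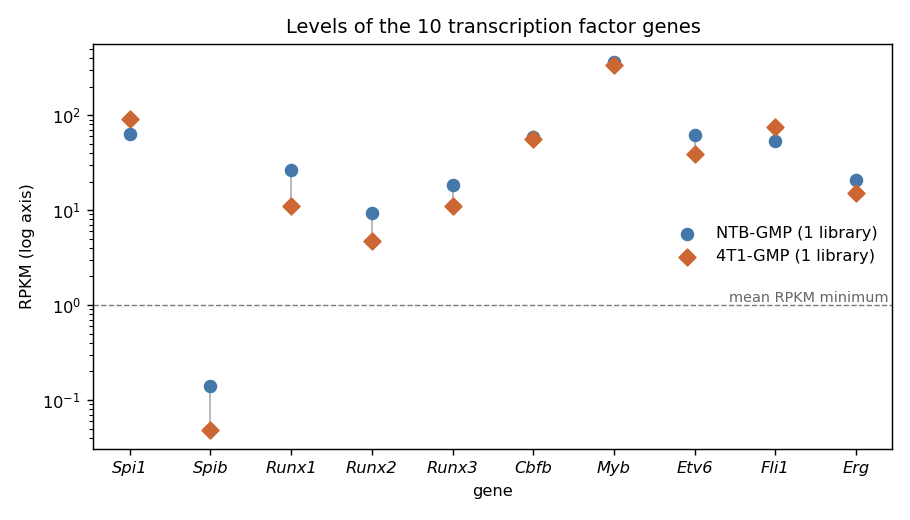
RPKM of each of the 10 genes on a log axis, with a blue circle for the NTB-GMP library and an orange diamond for the 4T1-GMP library, 1 library each and therefore no error bars. Myb stands highest in both libraries at 360.0 and 334.7 RPKM, Spib lies below the dashed line at a mean RPKM of 1, and the largest gap among the tested genes is that of Runx1.

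The order of the levels was led by Myb in both libraries. In NTB-GMP it was followed by Spi1 at 63.9 RPKM, Etv6 at 62.0 and Cbfb at 59.3, and the counting intervals of neighbors within these 3 genes overlapped. Fli1 came next at 53.4, then Runx1 at 26.4, Erg at 20.8, Runx3 at 18.5 and Runx2 at 9.28; of these, only Erg and Runx3 had overlapping intervals. In 4T1-GMP, Spi1 at 90.1 and Fli1 at 75.7 followed Myb, while Etv6 stood below Cbfb and Runx1 below Erg. Runx1 and Runx3 could not be separated there, both at 11 RPKM with intervals of 10.6 to 11.4 and 10.4 to 11.6. The spread between animals behind this order is unknown.

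The genes at least 1.5-fold lower were the 3 Runx genes and Etv6, and the 250 bases before a start of each are shown because these genes moved in the same direction. The windows come from RefSeq on GRCm38.p6, the build the authors' mm10 corresponds to. Capitals mark matches on either strand to TGTGGT, a core of the RUNX motif whose reverse complement is ACCACA, or to CAACTG, a core of the MYB motif. The windows cover a distal and a proximal start of Runx1 and Runx3, and the distal one is printed. For Runx2 and Etv6 the only window found is printed, which need not be their only start.
Runx1 distal start, chr16:92826075-92826324, reverse strand: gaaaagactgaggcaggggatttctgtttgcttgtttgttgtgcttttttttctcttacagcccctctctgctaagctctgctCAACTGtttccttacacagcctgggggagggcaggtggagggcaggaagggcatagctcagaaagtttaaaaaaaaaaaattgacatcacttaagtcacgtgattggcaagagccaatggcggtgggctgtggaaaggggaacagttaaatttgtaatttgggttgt
Runx2 start, chr17:44814628-44814877, reverse strand: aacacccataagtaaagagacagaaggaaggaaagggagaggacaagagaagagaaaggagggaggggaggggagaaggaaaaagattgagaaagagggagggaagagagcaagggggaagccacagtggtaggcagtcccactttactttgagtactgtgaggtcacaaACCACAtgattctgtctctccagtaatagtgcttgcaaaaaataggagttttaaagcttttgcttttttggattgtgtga
Runx3 distal start, chr4:135120395-135120644, forward strand: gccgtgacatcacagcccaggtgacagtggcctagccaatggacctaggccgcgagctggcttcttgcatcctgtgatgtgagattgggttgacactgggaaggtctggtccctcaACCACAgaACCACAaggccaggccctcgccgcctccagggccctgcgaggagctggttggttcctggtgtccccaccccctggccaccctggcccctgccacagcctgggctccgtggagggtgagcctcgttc
Etv6 start, chr6:134035450-134035699, forward strand: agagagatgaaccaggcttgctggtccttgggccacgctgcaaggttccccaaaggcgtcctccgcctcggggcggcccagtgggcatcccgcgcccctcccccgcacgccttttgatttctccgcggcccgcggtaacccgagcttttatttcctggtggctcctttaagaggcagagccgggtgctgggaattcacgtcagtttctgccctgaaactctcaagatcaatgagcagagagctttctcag

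Counting back from the base before the start as -1, the Runx3 window held the RUNX letters at -134 and -126, on the same strand and with 2 bases between them. The Runx2 window held them at -80. The Runx1 window held no RUNX match but a MYB match at -167, and the Etv6 window held neither. The proximal windows of Runx1 and Runx3 also had no match. RefSeq windows were found for 8 of the 10 genes, 12 windows in all; Spi1 and Fli1 had no entry. Of these 12, 2 held the RUNX letters, beside 14% of all 32851 windows of that length, and 1, that of Runx1, held the MYB letters, beside 11.1%. The ETS core GGAAGT, with reverse complement ACTTCC, was in 1 of the 12, that of Cbfb at -201, beside 19.7% of all windows. The 3 motifs did not overlap each other in these windows. GC content was 78.8% in the proximal Runx3 window and 67.6% in the proximal Runx1 window, but 65.2% and 45.6% in their distal ones. A match of 6 letters is a description of the sequence and not a bound site.

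Among the DNA-binding RUNX subunits, Runx1 had the lowest ratio of any member. It lies on chromosome 16 at 92601466-92826149, reverse strand, in GRCm38. Runx1 was at 26.4 RPKM in NTB-GMP, from 1986 reads, and at 11 in 4T1-GMP, from 2433 reads. Its log2 ratio was -1.26 with an interval of -1.35 to -1.18, and only 3.3% of tested genes had a lower one. RUNX1 is the subunit that blood formation in the embryo cannot do without, and in adult marrow it takes part in lymphoid, platelet and myeloid development.

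Runx2, best known as the factor of bone-forming cells and used in plasmacytoid dendritic cells, lies on chromosome 17 at 44495987-44814797, reverse strand. It was at 9.28 RPKM in NTB-GMP from 808 reads and at 4.69 in 4T1-GMP from 1205 reads. That is a log2 ratio of -0.97, interval -1.11 to -0.85. Runx3, a factor of cytotoxic T cells and of some myeloid lineages, lies on chromosome 4 at 135120652-135177990, forward strand. It was at 18.5 RPKM in NTB-GMP from 733 reads and at 11 in 4T1-GMP from 1281 reads, a log2 ratio of -0.75 with an interval of -0.89 to -0.62. Among the 3 genes, the interval of Runx1 lay wholly below the others, while those of Runx2 and Runx3 overlapped.

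Cbfb, on chromosome 8 at 105170674-105217989, forward strand, did not follow the genes of its partners. It was at 59.3 RPKM in NTB-GMP from 1760 reads and at 56.0 in 4T1-GMP from 4894 reads, a log2 ratio of -0.08 with an interval of -0.16 to -0.01. The summed RPKM of Runx1, Runx2 and Runx3 was 54.2 in NTB-GMP and 26.6 in 4T1-GMP. Set against Cbfb within each library, where the library total cancels, the sum was 0.914 of the Cbfb level in NTB-GMP and 0.476 in 4T1-GMP. These are RNA ratios and say nothing of how much of each protein is paired.

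The mix of RUNX subunits also differed between the libraries. Runx1 made up 48.8% of their summed RPKM in NTB-GMP and 41.2% in 4T1-GMP, while Runx3 made up 34.1% and 41.2%. The part of Runx2 was 17.1% and 17.6%. Counted as reads, which are not corrected for gene length, Runx1 had 56.3% in NTB-GMP, with a 95% Clopper-Pearson interval of 54.7 to 58, and 49.5% in 4T1-GMP, interval 48.1 to 50.9. Runx3 had 20.8% of the reads in NTB-GMP, interval 19.5 to 22.2, and 26% in 4T1-GMP, interval 24.8 to 27.3. The ratio of Runx1 to Runx3 RPKM was 1.43 in NTB-GMP and 1.00 in 4T1-GMP.

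**Figure D2:**
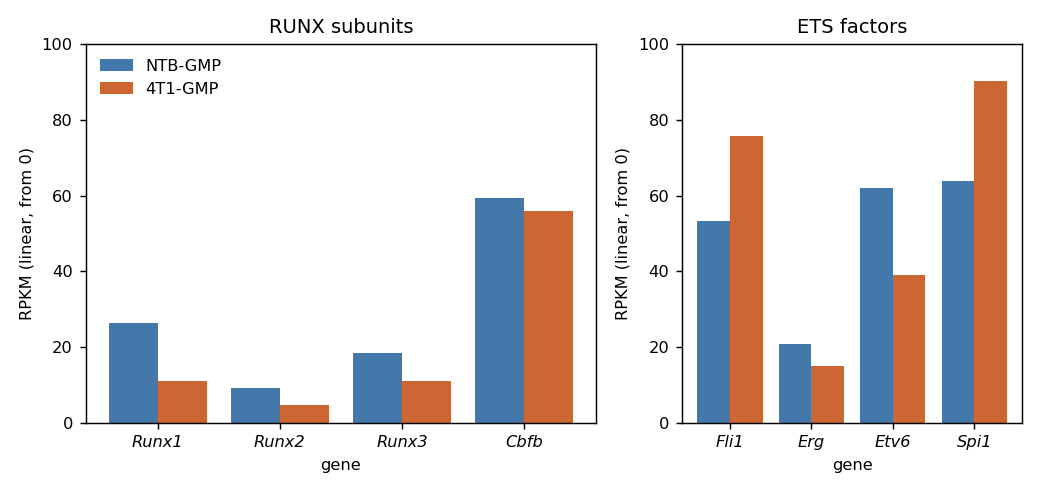
RPKM on a linear axis from 0 for the RUNX subunit genes with Cbfb on the left and for 4 ETS factors on the right, in NTB-GMP (blue) and 4T1-GMP (orange), 1 library per bar. The 3 Runx bars are lower in 4T1-GMP while Cbfb is 59.3 and 56.0, and on the right Fli1 and Spi1 are higher in 4T1-GMP while Erg and Etv6 are lower.

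Etv6, on chromosome 6 at 134035700-134270158, forward strand, was the only member outside the Runx genes past 1.5-fold. It was at 62.0 RPKM in NTB-GMP from 3593 reads and at 39.1 in 4T1-GMP from 6685 reads. Its log2 ratio was -0.66, with an interval of -0.72 to -0.61 that stays beyond the 1.5-fold line at 0.58 in size.

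Of the 4 lower genes, Runx1, Runx2 and Etv6 are long in the authors' gene models, at 7378, 8554 and 5696 bases. Among the 1254 tested genes of at least 5500 bases, the median log2 ratio was -0.15 and 16.5% were at least 1.5-fold lower. In the 5 shorter classes, the median went from 0.17 under 1000 bases to -0.06 at 4000 to 5500 bases. The share at least 1.5-fold lower followed no such order, at 12.7% under 1000 bases, 9.66% at 1000 to 2000 and 12.2% at 4000 to 5500. The ratios of Runx1, Runx2 and Etv6 were below the median of their length class, and the part of gene length in them was not tested. By level, 9.81% of the 4514 tested genes with a mean RPKM of 5 to 20, where the 3 Runx genes lie, were at least 1.5-fold lower, and 3.93% of the 687 genes at 50 to 100, where Etv6 lies. GENCODE places an antisense gene over exons of Runx1, Runx2, Myb and Etv6. The strand setting of the read counting is not given in the sources used here, so sense and antisense reads at these 4 genes cannot be told apart.

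**Figure D3:**
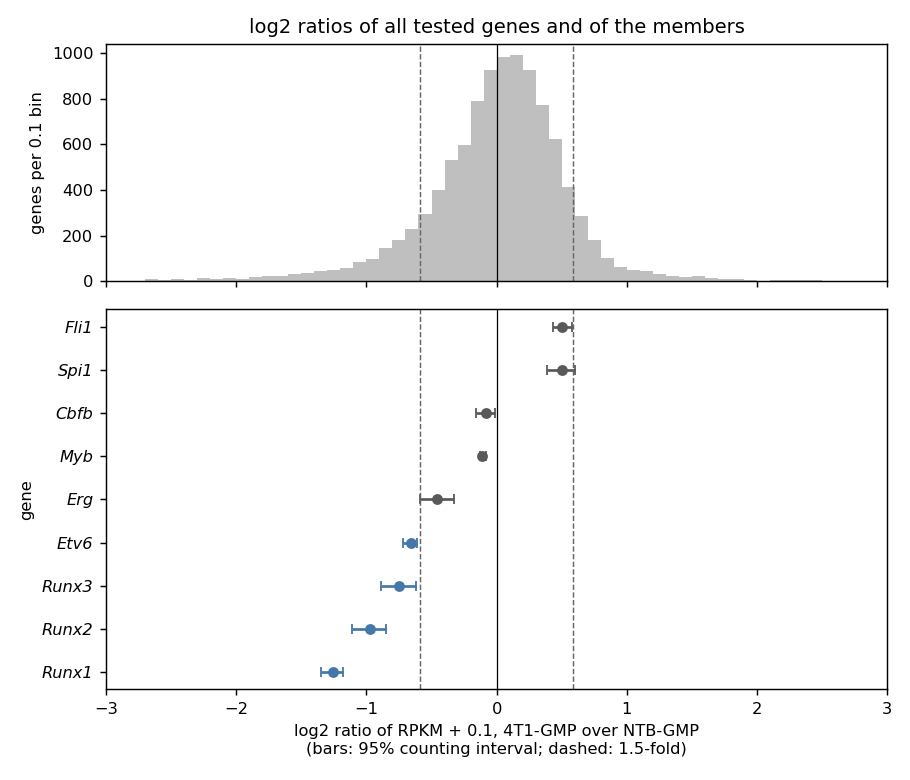
Above, the number of tested genes in each 0.1-wide bin of the log2 ratio of 4T1-GMP over NTB-GMP; below, the ratio of each of the 9 tested members with its 95% counting interval, in blue where at least 1.5-fold lower. The dashed lines mark 1.5-fold in each direction, and the members run from Runx1 at -1.26 to Fli1 and Spi1 at 0.50, with Myb and Cbfb near 0.

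Spi1, on chromosome 2 at 91082390-91115756, forward strand, was higher in the 4T1-GMP library. It was at 63.9 RPKM in NTB-GMP from 867 reads and at 90.1 in 4T1-GMP from 3605 reads. The log2 ratio was 0.50, with an interval of 0.39 to 0.60, and 86.4% of tested genes had a lower one. It lay under the 1.5-fold line, and the interval reaches past it. Spib, on chromosome 7 at 44525993-44532071, reverse strand, stood at 0.141 RPKM in NTB-GMP and 0.0478 in 4T1-GMP, from at least 2 recovered reads in each. The recovered reads, which are lower bounds, are under the floor of 3, so no fold is given. A difference in Spib was not detectable from them.

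Because PU.1 acts with and against other factors, the Spi1 level was set against theirs within each library. Spi1 was at 2.16 times the RPKM of Gata2, a factor of stem, mast and megakaryocyte lineages that opposes PU.1, in NTB-GMP and at 17.5 times in 4T1-GMP. Against Irf8, the monocyte and dendritic factor that binds DNA together with PU.1, the ratio was 2.00 and 20.2. Against Cebpa, which pairs with PU.1 in making granulocytes, it was 1.40 and 2.53. The ratio was lower in 4T1-GMP against the partners that stood higher there, at 11.1 and 7.56 for Cebpb and 1.42 and 1.09 for Gfi1. Over the 8 partners tested, it was higher in 4T1-GMP for 6 and lower for 2. For Gata2 and Irf8 the larger part of the shift lay in the other gene, since Spi1 itself differed 1.41-fold while Gata2 stood at 29.5 and 5.14 RPKM and Irf8 at 32.0 and 4.45.

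Myb, on chromosome 10 at 21124935-21160984, reverse strand, had the highest level of the 10 genes, above 98.6% of tested genes in NTB-GMP and 98.4% in 4T1-GMP. It was at 360.0 RPKM from 13841 reads in NTB-GMP and at 334.7 from 37943 in 4T1-GMP. The log2 ratio of -0.11 had an interval of -0.13 to -0.08, narrow because of the many reads. In fold this was 0.93, against a spread of tested genes whose lower and upper quartiles were -0.26 and 0.32 on the log2 scale. Its relative Mybl2, a factor of dividing cells, was at 22.4 RPKM in NTB-GMP and 34.7 in 4T1-GMP, a log2 ratio of 0.63. Mybl1 was under the minimum level.

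FLI1 and ERG have closely related DNA-binding domains, and the log2 ratios of their genes lay on opposite sides of 0. Fli1, on chromosome 9 at 32422204-32542861, reverse strand, was at 53.4 RPKM in NTB-GMP from 1725 reads and at 75.7 in 4T1-GMP from 7213 reads. Its log2 ratio was 0.50 with an interval of 0.43 to 0.58. Erg, on chromosome 16 at 95359169-95586593, reverse strand, was at 20.8 RPKM from 735 reads and at 15.1 from 1574 reads, a log2 ratio of -0.46 with an interval of -0.59 to -0.33. Neither passed 1.5-fold alone. The ratio of Fli1 to Erg RPKM was 2.56 in NTB-GMP and 5.0 in 4T1-GMP. As a share of the reads of the pair, Fli1 had 70.1% in NTB-GMP, interval 68.3 to 71.9, and 82.1% in 4T1-GMP, interval 81.3 to 82.9.

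Over the 5 ETS genes among the members, the summed RPKM was 200 in NTB-GMP and 220 in 4T1-GMP. Etv6 made up 31.0% of it in NTB-GMP and 17.8% in 4T1-GMP, Spi1 31.9% and 40.9%, Fli1 26.7% and 34.4%, and Erg 10.4% and 6.88%. The mix behind the sum went from about equal parts of Spi1 and Etv6 in NTB-GMP to Spi1 at 2.30 times Etv6 in 4T1-GMP.

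In the wider ETS family, 12 of 16 other genes were tested. Of these, 0 were at least 1.5-fold higher and 1 was lower, beside 9.80% and 11.6% of all tested genes, and the median log2 ratio was -0.11. The lower gene was Etv5, at 1.82 RPKM in NTB-GMP and 0.523 in 4T1-GMP, near the minimum level, and its log2 ratio of -1.63 was further from 0 than that of any tested ETS gene among the members. Etv4, Etv1 and Fev were listed at 0 in both libraries. Elf1 and Gabpa, factors used in most cells, are among the 11 tested genes that stayed within 1.5-fold.

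Of 13 cofactors and corepressors that RUNX, MYB and ETV6 work through, 12 were tested, 1 was at least 1.5-fold higher and 5 were lower, with a median of -0.44. Among the lower ones were Cbfa2t3 at -1.14, a corepressor of the ETO family, and Kat6a at -0.77, a histone acetyltransferase that joins RUNX1. Cbfa2t3 stood at 8.45 RPKM in NTB-GMP and 3.77 in 4T1-GMP, and Kat6a at 24.0 and 14.0. The higher one was Tle1, a Groucho-type corepressor, at 1.15 and 1.95 RPKM. Runx1t1 was listed at 0 in both. Among the cofactor genes of at least 5500 bases, Cbfa2t3 at 7964, Kat6a at 9126 and Crebbp at 7507 bases were at least 1.5-fold lower. Ep300 at 8749 bases had a log2 ratio of -0.48 and Ncor1 at 11144 bases one of -0.16. Tle1 at 12173 bases was the higher one.

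Of 10 partners and antagonists of PU.1, 8 were tested, 2 were at least 1.5-fold higher and 5 were lower, with a median of -1.34. Irf8 had the lowest ratio at -2.82, followed by Gata2 at -2.50 and Gata1, the erythroid factor that opposes PU.1, at -2.26. Gata1 rested on 41 reads in NTB-GMP and 23 in 4T1-GMP. The higher ones were Cebpb, the C/EBP factor of emergency granulopoiesis, at 5.76 and 11.9 RPKM, and Gfi1, a repressor that favors neutrophils over monocytes, at 45.0 and 82.7. All 6 partners of ERG, FLI1 and RUNX1 in stem and progenitor cells were tested, with a median of -0.40. Among them, 0 were at least 1.5-fold higher and 2 were at least 1.5-fold lower, Gata2 and Meis1. Meis1, a HOX partner, was at 17.1 RPKM in NTB-GMP and 4.73 in 4T1-GMP. Lmo2, Lyl1 and Tal1, also among these partners, were within 1.5-fold.

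Known myeloid targets of PU.1, RUNX1 and MYB did not move as 1 group. Of 15, 14 were tested, 7 were at least 1.5-fold higher and 3 were lower, with a median of 0.54. The 3 highest ratios belonged to Prtn3 at 1.24 and Ctsg at 1.11, both neutrophil granule proteases, and to Csf3r at 1.09, the G-CSF receptor. Csf3r was at 43.2 RPKM in NTB-GMP and 92.2 in 4T1-GMP. The lower ones were Bcl2 at -2.14, an anti-apoptotic gene, Kit at -0.67, the stem cell factor receptor, and Csf1r at -0.62, the M-CSF receptor. Csf1r was at 12.1 and 7.89 RPKM, Kit at 78.5 and 49.1, and Bcl2 at 15.7 and 3.49.

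**Figure D4:**
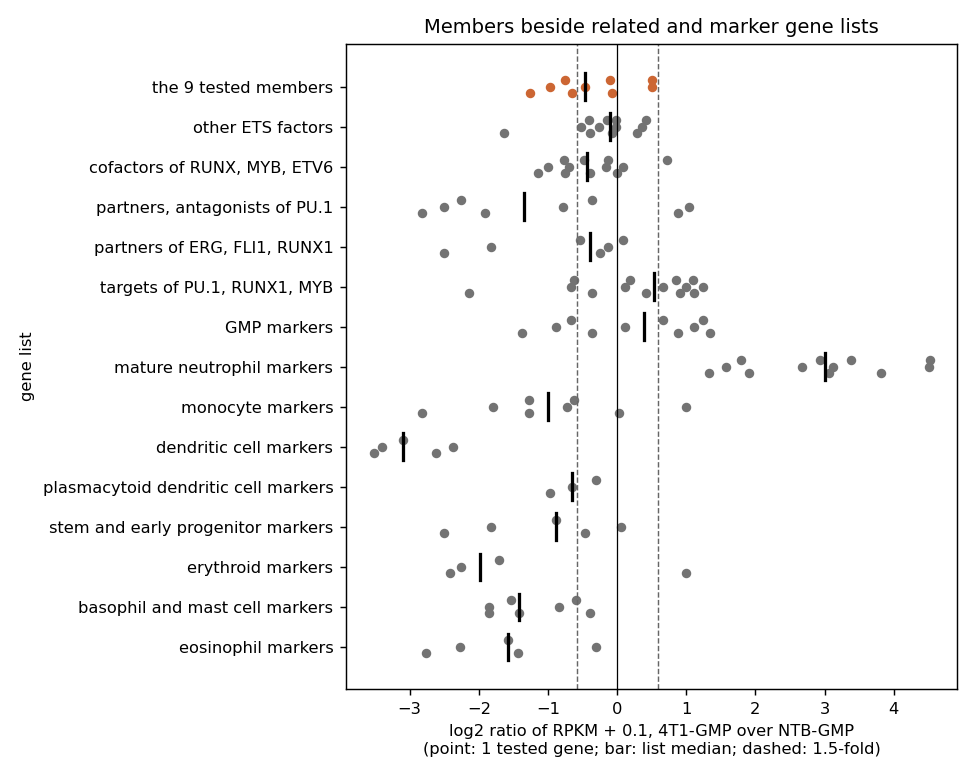
Each point is the log2 ratio of 4T1-GMP over NTB-GMP of 1 tested gene, grouped by the members (orange) and by the related and marker lists with at least 3 tested genes (gray); the black bar is the list's median and the dashed lines mark 1.5-fold. The members' median is -0.46, the mature neutrophil markers lie to the right with a median of 3.0, and the dendritic cell markers lie to the left with a median of -3.10.

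Marker genes of cell types also differed between the libraries. In the marker counts here and below, higher and lower mean at least 1.5-fold. Of all tested genes, 9.80% were higher and 11.6% lower by that measure. All 12 mature neutrophil markers were at least 1.5-fold higher in the 4T1-GMP library, with a summed RPKM of 514 in NTB-GMP and 4072 in 4T1-GMP, and S100a9 alone was at 189.1 and 1974.4. Of 10 GMP markers, 5 were higher and 3 lower. The lower ones were Cd34 at 153.8 RPKM in NTB-GMP and 59.4 in 4T1-GMP, Kit at 78.5 and 49.1, and Fcgr3 at 53.1 and 28.6. Of 10 monocyte markers, 8 were tested, 1 was higher and 6 were lower, with a summed RPKM of 228 and 126. Of 10 dendritic cell markers, the 5 tested were all lower, with a summed RPKM of 112 and 13.1.

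Markers of lineages that use Runx1, Runx2, Runx3, Fli1 or Erg were also measured, with higher and lower again meaning at least 1.5-fold. Of 8 basophil and mast cell markers, 7 were tested and 6 were lower, with a summed RPKM of 542 in NTB-GMP and 259 in 4T1-GMP. Of 5 eosinophil markers, all tested, 4 were lower, summing to 1406 and 475. Of 10 stem and early progenitor markers, 5 were tested and 3 were lower, summing to 126 and 69.9. Of 7 megakaryocyte markers, 2 were tested and both were lower, summing to 16 and 5.78. Of 9 erythroid markers, 4 were tested, 1 was higher and 3 were lower. Their summed RPKM was 55.5 and 77.1, of which Tfrc, the transferrin receptor of dividing cells, had 36.6 and 73.0, and the globin genes Hba-a1 and Hbb-bt were at 0 in both libraries.

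Plasmacytoid dendritic cell markers, a list that itself holds Spib and Runx2, had 3 tested genes of 10. Of these, 2 were at least 1.5-fold lower, Runx2 among them. Their summed RPKM was 43 and 30.1. Siglech, the defining surface marker, was at 0.0820 and 0.0139 RPKM, and Klk1 and Pacsin1 were at 0. The only tested gene of 9 B cell markers was Cd79b, at 14.7 RPKM in NTB-GMP and 12.4 in 4T1-GMP, of a list sum of 16.1 and 13.3. Pax5 and Cd79a each stayed under 0.3 RPKM in both libraries. None of 10 T and NK cell markers reached the minimum level. Their summed RPKM was 1.28 in NTB-GMP and 3.06 in 4T1-GMP, with Tcf7 at 0.307 and 1.59, Lck at 0.299 and 0.783, and Cd3g at 0. Of 5 endothelial markers 1 was tested, Pecam1, and it was at least 1.5-fold lower, at 29.5 RPKM in NTB-GMP and 11.3 in 4T1-GMP. Kdr was at 0 in both, and the list summed to 31.3 and 12. Of 6 epithelial and 4T1 tumor markers 2 were tested and 1 was at least 1.5-fold lower. The tested ones were Krt18, at 12.8 RPKM in NTB-GMP and 8.90 in 4T1-GMP, and Cdh1, the lower gene, at 5.36 and 1.04. Epcam, Krt14 and Krt5 were at 0 in both, and the list summed to 18.3 and 10.1. The neutrophil, monocyte, dendritic, basophil and mast, eosinophil and stem cell marker levels differed between the same 2 libraries as the Runx genes, Etv6, Spi1 and Fli1. A pair of libraries holds 1 difference, so it cannot show whether markers and members vary together. The part of these cells in the members' ratios was not tested.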

How the data were processed

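Bulk RNA-seq of sorted GMPs was analysed, with 1 library of each group. The authors deposited 1 RPKM value per gene symbol and library. The submitters' processing notes name CASAVA 1.8.2, cutadapt 1.2.1, TopHat2 2.0.13, Picard 1.97, HTSeq 0.6.1, edgeR 3.12.1 and the build mm10; strand setting, annotation and other parameters are not given in the sources used here. RPKM depends on what was counted in the library size and on the gene lengths.

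The RPKM of a gene in the 2 libraries stand in a ratio of whole reads, which gave the reads and the gene length for 14832 of the 14833 symbols above 0 in either library; recovered reads are lower bounds, since a common factor of both counts and the length can be missed, and they summed to 9484805 and 26347399. The scaling totals, 10180365.24 and 30016262.80, were not whole numbers. The recovery was tested on simulated data. Log2 ratios used a pseudocount of 0.1 RPKM; tested genes had a mean RPKM of at least 1; a call was a 1.5-fold difference, with 2-fold beside it. The difference is described without a test. Intervals are Clopper-Pearson at 95%, from Python 3.11.15 with scipy 1.17.1, and level intervals are exact Poisson ones.

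The members and gene lists were chosen with earlier results of these data known, and the lists came from general knowledge. The text names all 10 members and up to 3 of the most abundant genes of a marker list. In each related list with 3 or more tested genes, it names up to 3 of the highest and 3 of the lowest genes past 1.5-fold. Mybl1, Mybl2, Elf1, Gabpa, Lmo2, Lyl1, Tal1, Cebpa, Siglech, Ncor1, Crebbp, Ep300, Cd34, Fcgr3, Cd79b, Cd79a and Pax5 were added after their values were seen. Some genes that this rule would name are not reported here. Loci came from GENCODE M21 and start windows from RefSeq. Alternatives changed the pseudocount, library total, scaling, level minimum and fold.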

Additional observations from a re-analysis of the deposited data

How the results depend on the processing

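With 1 library per group, no replicate could be left out. No paired analysis was possible because the groups hold a lone library each. The 9 tested members kept their direction under another pseudocount (1 or 0.01), Rn45s left out, TMM factors from the recovered reads, centring on the median and quantile normalization: of 54 values, 38 stayed within the counting interval, 16 moved outside it and 0 changed sign. Runx1 ranged from -1.42 to -1.19, Runx2 from -1.13 to -0.85, Runx3 from -0.91 to -0.70, Etv6 from -0.86 to -0.65, Erg from -0.62 to -0.44, Spi1 from 0.24 to 0.50, Fli1 from 0.28 to 0.50, Myb from -0.36 to -0.10 and Cbfb from -0.31 to -0.08.

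The count of members at least 1.5-fold lower was 4 or 5 under every setting but a fold of 2, which left 1, Runx1, by its own construction. It was 5 with Rn45s left out, which added Erg, and with all genes above 0, which added Spib on 2 recovered reads per library. No setting gave a member at least 1.5-fold higher. The members' median moved from -0.46 to -0.62 with Rn45s left out, where the median of all tested genes moved to -0.11. The Runx1 share of the RUNX subunits was 56.3% in NTB-GMP and 49.5% in 4T1-GMP when counted in reads, since Runx1 is longer than Runx3 but shorter than Runx2. Depth limits Spib, whose recovered reads, at least 2 per library, cannot show a difference. It also limits the 1.5-fold calls of Spi1 and Erg, whose counting intervals span that line.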
